A study of Homo sapiens with 4 samples.

Results

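Laminins are the glycoproteins that assemble into the sheet-like network of basement membranes, the matrix on which epithelial cells such as those of the bladder lining rest. Each laminin molecule joins an alpha, a beta and a gamma chain encoded by separate genes, and the chains it contains set which tissues it is found in and which receptors it binds. In epithelia, laminins bind integrins and dystroglycan and anchor the cell to the matrix beneath it. The 8 genes described here were taken by name (LAMA1, LAMA3, LAMA4, LAMA5, LAMB1, LAMB2, LAMB3 and LAMC1) from a table of 60623 genes, and all 8 were present and passed the filter on low counts. All positions of genes given here are on GRCh38. The 8 genes encode 4 alpha chains, 3 beta chains and 1 gamma chain.

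RNA was sequenced from T24, a long-established cell line from a human bladder carcinoma, in 2 libraries from cells overexpressing miR-146a-5p and 2 libraries from cells given a scramble control. The description of the study calls the means of overexpression a transfected mimic, an RNA that acts in place of the mature microRNA. The labels give neither dose nor time after transfection, and all libraries are of the same cell line. They also do not say whether replicates are separate cultures, and every p-value below therefore reflects library-to-library spread that may be technical.

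A microRNA acts mainly by pairing its seed, bases 2 to 8 from its 5′ end, with the 3′ untranslated region (3′ UTR) of a messenger RNA, which lowers the level or translation of that RNA. The 3′ UTR of the longest coding transcript was searched on its sense strand in each of the 8 genes for AGTTCTC, the reverse complement of the seed, or for GTTCTCA, which pairs with bases 2 to 7 and ends in A. LAMB3 was the 1 gene of the 8 with a match, and its match was AGTTCTC without the A. In all, 21.01% of the 12345 tested genes with a 3′ UTR held a match. Among the 1226 tested genes with a 3′ UTR of 297 to 495 bases, close in length to the 396 bases of LAMB3, 5.71% held one. No match says only that these letters were not in the window searched, which ran from 112 bases in LAMB2 to 2802 bases in LAMC1. The microRNA (from RefSeq, GRCh38.p14) is shown with its seed in capitals, followed by the LAMB3 site and, as a textbook target of the same microRNA, the first site in IRAK1, both with the matched bases in capitals and both written 5′ to 3′ on the sense strand, ending at the base opposite the first base of the microRNA.
hsa-miR-146a-5p: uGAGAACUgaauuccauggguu
LAMB3: tatcccccgcctttAGTTCTCc
IRAK1: aatccggaagtcaaAGTTCTCA
The microRNA lies at chr5:160485372-160485393 on the plus strand. The LAMB3 site lies in the 3′ UTR at chr1:209614979-209615000 on the minus strand, and the IRAK1 site lies in the 3′ UTR at chrX:154011812-154011833 on the minus strand (both GRCh38, GENCODE release 29).

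Total estimated counts per library were between 20290055 and 22774090. The microRNA libraries were correlated at 0.989 across the 14810 tested genes (log2 CPM, where CPM is the count per library size after adjustment with TMM factors), and the scramble libraries at 0.925. The scramble libraries stand apart from each other, so each gene is also given without either of them. IRAK1 checks the labels, with 109 and 109 CPM in the miR-146a-5p libraries and 499 and 717 CPM in the scramble libraries. Its edgeR log2 fold change was -2.48 ± 0.24 (SE). DESeq2 called IRAK1 (adjusted p = 5.03e-09), but edgeR's quasi-likelihood test did not (adjusted p = 0.728). A gene not called by edgeR here can therefore still differ between the groups. Of the markers of the labelled cell type, KRT7, KRT8, KRT18 and VIM were abundant, while CDH1 was at or near 0 in all 4 libraries, and so were the basal marker KRT5 and 5 of 6 luminal markers, UPK1A, UPK1B, UPK2, UPK3A and KRT20 (at most 0.132 CPM). The other luminal marker, GATA3, had 0.514 and 1.23 CPM in the miR-146a-5p libraries and 0.268 and 0.220 CPM in the scramble libraries. KRT19 had 15.9 and 14.4 CPM with miR-146a-5p and 31.9 and 42.6 CPM in scramble cells (DESeq2 adjusted p = 0.0681), and EPCAM had 1.496 and 1.47 CPM with miR-146a-5p and 0.850 and 0.879 CPM in scramble cells. These 3 markers did not overlap between groups, nor did KRT18 (643 and 579 CPM with miR-146a-5p, 706 and 1164 CPM in scramble cells). Over all tested genes, the groups did not overlap in 36%. The part of these markers in the laminin values was not tested. The 8 markers of fibroblasts, which also make laminin, summed to 5.89 and 6.86 CPM in the miR-146a-5p libraries and to 3.36 and 4.001 CPM in the scramble libraries, and their part was not tested either. Endothelial markers summed to at most 0.588 CPM in any library, and leukocyte markers to at most 1.80 CPM.

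No laminin chain of the 8 passed the test between the miR-146a-5p and scramble libraries. By edgeR's quasi-likelihood test, adjusted by Benjamini-Hochberg over all 14810 tested genes, the adjusted p of the 8 lay between 0.970 and 0.987, with 0 of the 8 at an unadjusted p under 0.05, and edgeR called 0% of all tested genes. DESeq2 on the same counts called 0 of the 8 as well, against 0.324% of the 16044 genes it tested (0.274% higher and 0.0499% lower). The lowest unadjusted p of the 8 by DESeq2 was 0.0844. Limma-voom called 0 of the 8 and 0 of all tested genes. By limma-voom 1 of the 8, LAMA4, was at an unadjusted p under 0.05, and the share of all genes there was not counted. The median log2 fold change of the 8 was 0.15, beside a median of -0.0014 over all tested genes. In 5 of the 8 genes both miR-146a-5p libraries lay above both scramble libraries in CPM, in 1 they lay below, and in 2 the groups overlapped. Over all tested genes, 18% lay above in this way and 17.9% below, or 36% either way. In these bulk samples, fewer cells that make a chain and less of its RNA per cell cannot be told apart.

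**Figure D1:**
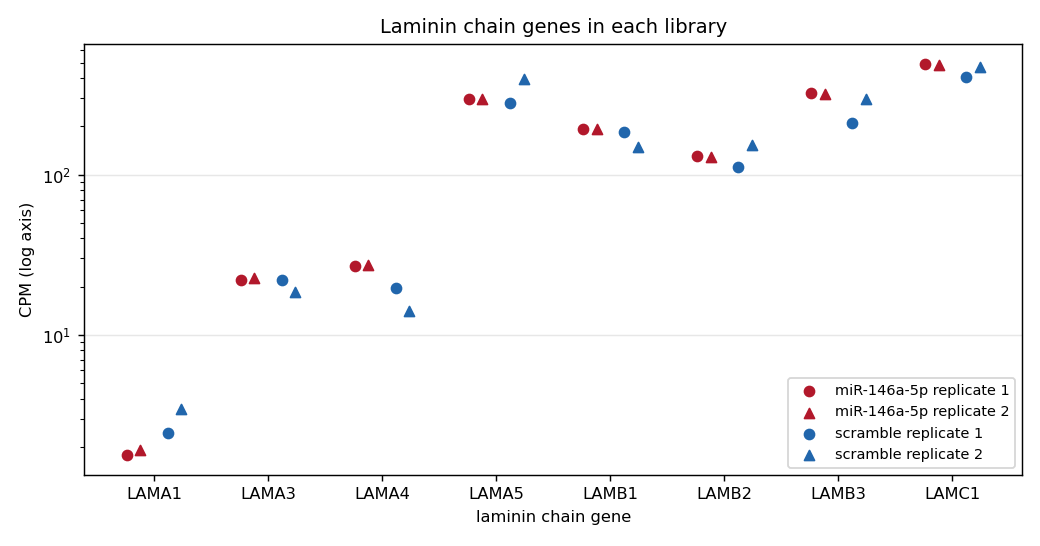
CPM on a log axis (y) of each laminin chain gene (x) in each library, with miR-146a-5p libraries in red and scramble libraries in blue, circles for replicate 1 and triangles for replicate 2. The miR-146a-5p libraries sit almost on top of each other in every gene, while the scramble libraries are apart, as for LAMA5, with 296 and 296 CPM in the miR-146a-5p libraries and 279 and 398 CPM in the scramble libraries.

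Among the alpha chains, LAMA4 (chr6:112108760-112254939, minus strand), which is best known from the basement membranes of blood vessels, had 27.0 and 27.1 CPM in the miR-146a-5p libraries, against 19.6 and 14.2 CPM in the scramble libraries. Both miR-146a-5p libraries were above both scramble libraries, and the log2 fold change was 0.68 ± 0.25 (SE), the largest positive value of the 8. LAMA4 also had the lowest unadjusted p of the 8, at 0.051 by edgeR's quasi-likelihood test (adjusted p = 0.970) and at 0.0844 by DESeq2. With either scramble library left out the direction was the same and edgeR called the gene, with a log2 fold change of 0.93 without scramble replicate 1 (adjusted p = 4.98e-11) and 0.48 without scramble replicate 2 (adjusted p = 0.00278). DESeq2 called it without scramble replicate 1 (adjusted p = 0.000495) and not without scramble replicate 2 (adjusted p = 0.228). Each of those fits takes the spread of the lone scramble library from the miR-146a-5p pair, which varied little.

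LAMA1 (chr18:6941744-7117814, minus strand), the alpha chain of embryonic basement membranes, was the 1 gene that lay below both scramble libraries, with 38 and 39 counts in the miR-146a-5p libraries against 55 and 78 counts in the scramble libraries. These are 1.78 and 1.91 CPM against 2.46 and 3.43 CPM, so the gene was near the low end of what was tested. The log2 fold change of LAMA1 was -0.67 ± 0.33 (SE, edgeR adjusted p = 0.970). The value was -0.89 without scramble replicate 1 (edgeR adjusted p = 0.0275) and -0.40 without scramble replicate 2 (edgeR adjusted p = 0.541). DESeq2 did not call LAMA1 without scramble replicate 1 (adjusted p = 0.342).

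LAMA5 (chr20:62307955-62367312, minus strand), the alpha chain found in most adult epithelial basement membranes, had 296 and 296 CPM in the miR-146a-5p libraries, against 279 and 398 CPM in the scramble libraries. The miR-146a-5p values lay between those of the scramble libraries, and the log2 fold change of -0.19 ± 0.23 (SE) was within its own error. By edgeR it was -0.43 without scramble replicate 1 and 0.10 without scramble replicate 2, so its sign differed with the scramble library used. Exons of LAMA5 overlap those of ADRM1 on the opposite strand by 244 bases. ADRM1 had 4291 and 3726 counts with miR-146a-5p and 3933 and 6184 counts in scramble cells, highest in the same library as LAMA5. The strand setting of the counting is unknown here, and the part of ADRM1 reads in LAMA5 was not tested.

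LAMA3 (chr18:23689443-23956222, plus strand), the alpha chain of the laminin that anchors stratified epithelia, had 22.1 and 22.7 CPM in the miR-146a-5p libraries, against 22.01 and 18.6 CPM in the scramble libraries. The groups did not overlap, but the lowest miR-146a-5p value and scramble replicate 1 were nearly the same, and in TPM (the authors' length-scaled measure, whose making is not given in detail) the groups overlapped. The log2 fold change was 0.14 ± 0.21 (SE), and it was not called without scramble replicate 1 (0.27, edgeR adjusted p = 0.0758) or without scramble replicate 2 (0.04, edgeR adjusted p = 0.884).

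Among the beta chains, LAMB3 (chr1:209614870-209652466, minus strand), the partner of LAMA3 in that anchoring laminin and the gene with the seed match shown above, had 325 and 320.2 CPM in the miR-146a-5p libraries, against 211 and 299 CPM in the scramble libraries. It lay above both scramble libraries, the opposite side from IRAK1. The log2 fold change of LAMB3 was 0.34 ± 0.23 (SE, edgeR adjusted p = 0.970). The size depended on the scramble library, at 0.63 without scramble replicate 2 (edgeR adjusted p = 3.06e-11) and 0.11 without scramble replicate 1 (edgeR adjusted p = 0.254).

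LAMB1 (chr7:107923799-108003255, minus strand), the widely expressed beta chain, had 194 and 194 CPM in the miR-146a-5p libraries, against 186 and 149 CPM in the scramble libraries. The groups did not overlap in CPM, but in TPM they did, at 59.8 and 60.2 TPM with miR-146a-5p and 59.9 and 39.4 TPM in scramble cells. The log2 fold change was 0.21 ± 0.19 (SE), called by edgeR without scramble replicate 1 (0.38, adjusted p = 1.38e-05) and not without scramble replicate 2 (0.07, adjusted p = 0.594). Exons of LAMB1 overlap those of DLD on the opposite strand by 70 bases. DLD had 1901 and 1923 counts with miR-146a-5p and 2515 and 881 counts in scramble cells. Exons of AC005046.1, also on the opposite strand, overlap those of LAMB1 by 221 bases. AC005046.1 had 7.21 and 6.0 counts with miR-146a-5p and 22.78 and 1.37 counts in scramble cells. The part of reads from either gene in LAMB1 was not tested.

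LAMB2 (chr3:49121114-49133118, minus strand), a beta chain known for its place in the kidney filter and at the nerve-muscle junction, had 129.9 and 129 CPM in the miR-146a-5p libraries, against 111 and 153 CPM in the scramble libraries. The miR-146a-5p libraries lay between the scramble libraries, and the log2 fold change was -0.03 ± 0.23 (SE, edgeR adjusted p = 0.987). LAMB2 was called in opposite directions as the scramble library changed, lower without scramble replicate 1 (-0.24, edgeR adjusted p = 0.00732) and higher without scramble replicate 2 (0.23, edgeR adjusted p = 0.0346). DESeq2 called it in neither fit (adjusted p of 0.0637 and 0.272).

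LAMC1 (chr1:183023460-183145592, plus strand), the gamma chain shared by most laminins, had 494 and 482 CPM in the miR-146a-5p libraries, against 407 and 470.5 CPM in the scramble libraries. All 4 values were within a narrow range, with both miR-146a-5p libraries on top. The log2 fold change was 0.15 ± 0.16 (SE, edgeR adjusted p = 0.970), and it was 0.27 without scramble replicate 2 (edgeR adjusted p = 0.0171) and 0.05 without scramble replicate 1 (edgeR adjusted p = 0.634).

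**Figure D2:**
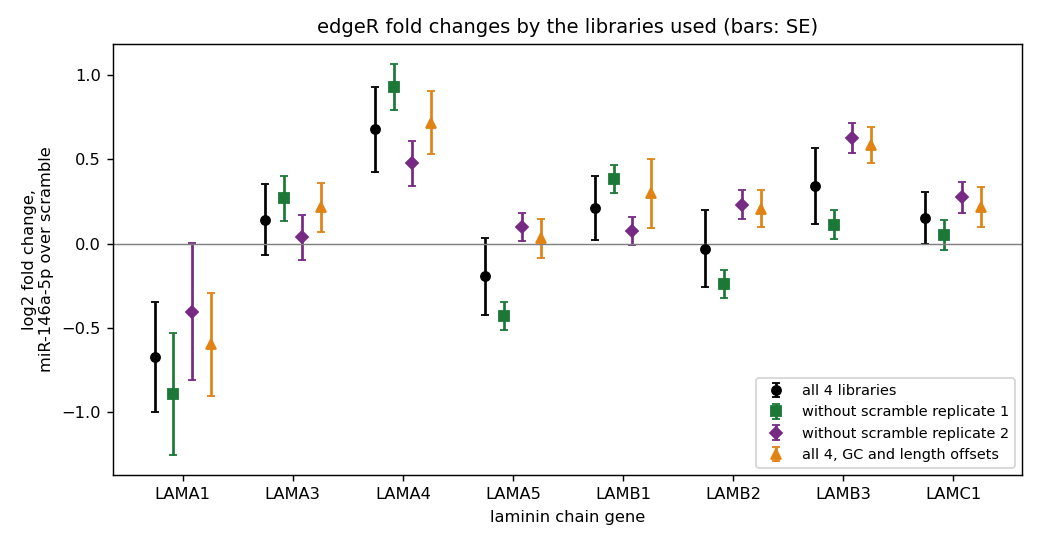
Log2 fold change of miR-146a-5p over scramble (y) of each laminin chain gene (x) by edgeR with all 4 libraries, without either scramble library, and with offsets for GC content and transcript length, with bars for 1 SE. LAMA4 is above 0 in all 4 fits and LAMA1 below 0, while LAMA5 and LAMB2 lie on both sides of 0, at -0.24 and 0.23 for LAMB2 without scramble replicate 1 and without scramble replicate 2.

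Counted over the 8 genes, edgeR called 2 higher (LAMA4 and LAMB1) and 3 lower (LAMA1, LAMA5 and LAMB2) without scramble replicate 1. In that fit it called 28.5% of all tested genes higher and 26.4% lower, 54.9% in all. Without scramble replicate 2 it called 4 higher (LAMA4, LAMB2, LAMB3 and LAMC1) and 0 lower, where it called 10.1% of all tested genes higher and 11.7% lower, 21.7% in all. In that fit 7 of the 8 log2 fold changes were positive, all set against the same lone scramble library. Their median was 0.17, beside 0.0168 over all tested genes. The share of all genes with a positive value was not counted. DESeq2 without scramble replicate 2 called 2 of the 8 higher and 0 lower (3.97% and 5.67% of all genes it tested, 9.64% together), and without scramble replicate 1 it called 2 higher and 1 lower (22.5% and 15.5%, 38.1% together). The median edgeR log2 fold change of the 8 was 0.16 without miR-146a-5p replicate 1 and 0.15 without miR-146a-5p replicate 2.

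The scramble libraries differed from each other in these genes partly along with base composition. Scramble replicate 2 was above scramble replicate 1 by 0.51 on the log2 CPM scale for LAMA5, whose longest coding transcript is 66.4% G and C. It was above by 0.46 for LAMB2 (60.3%) and by 0.50 for LAMB3 (58.9%). The same difference was -0.47 for LAMA4, the gene with the lowest GC content of the 8, at 46.6%. Genes of nearly equal GC content also went opposite ways, with 0.46 for LAMA1 (50.9%) and -0.24 for LAMA3 (50.7%). For LAMC1 (48.6%) the difference was 0.21, and for LAMB1 (49.5%) -0.32. Across the 8 genes Spearman's rho of GC content and this difference was 0.857, a description over genes read from the same pair of libraries. The miR-146a-5p libraries differed by between -0.03 and 0.10 in all 8.

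Tested genes of like GC content show how far the members followed that trend. For LAMB3, the 1705 tested genes within 2 percentage points of its GC content had a median difference between the scramble libraries of 0.45 and a median log2 fold change of -0.18, against 0.34 for LAMB3 itself. For LAMA4, the 2256 genes in the same window had medians of 0.03 and 0.01, against -0.47 and 0.68 for LAMA4. With offsets that remove trends on GC content and length, 7 of the 8 log2 fold changes were positive and their median was 0.22, beside 0.07 over all tested genes. LAMB3 then had a log2 fold change of 0.59 ± 0.11 (SE), LAMA4 0.72 ± 0.19, LAMA5 0.03 ± 0.12 and LAMB2 0.21 ± 0.11, and edgeR called none of the 8 (adjusted p of 0.311 for LAMB3 and 0.416 for LAMA4).

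**Figure D3:**
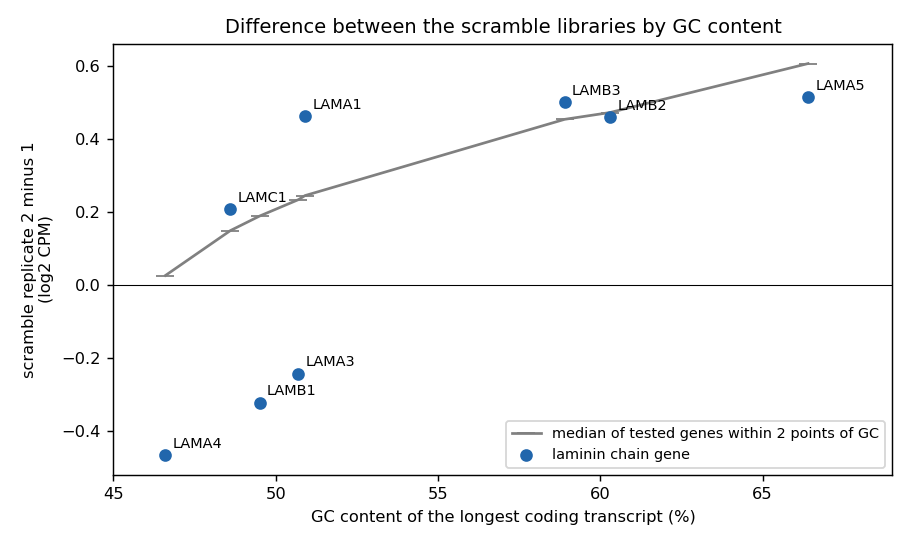
Difference between scramble replicate 2 and scramble replicate 1 in log2 CPM (y) against the GC content of the longest coding transcript in percent (x), with 1 blue point per laminin chain gene and in grey the median of the tested genes within 2 points of each gene's GC content. LAMA5, LAMB2 and LAMB3 sit near the grey line at the GC-rich end, while LAMA4, LAMB1 and LAMA3 sit below it, at differences of -0.47, -0.32 and -0.24. LAMA1 sits above the line, at 0.46.

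Levels between genes are compared per length, in TPM unless another scale is named. In the miR-146a-5p libraries the order was LAMB3 (126 ± 5.01 TPM, SD, n = 2), LAMC1 (118 ± 6.51 TPM), LAMB2 (93.6 ± 4.26 TPM), LAMA5 (71.6 ± 6.39 TPM) and LAMB1 (60.0 ± 0.311 TPM), followed far below by LAMA4 (9.68 ± 0.396 TPM), LAMA3 (4.72 ± 0.460 TPM) and LAMA1 (0.49 ± 0.198 TPM). Within these libraries the values of LAMC1 (113 and 122 TPM) reached those of LAMB3 (122 and 129 TPM). Both ranges lay above those of the genes ranked after LAMC1. The order was the same in the scramble libraries, at 100.2 ± 13.6 TPM for LAMB3, 98.8 ± 4.80 TPM for LAMC1, 84.3 ± 19.0 TPM for LAMB2, 82.1 ± 15.7 TPM for LAMA5, 49.6 ± 14.5 TPM for LAMB1, 6.97 ± 0.198 TPM for LAMA4, 5.06 ± 1.40 TPM for LAMA3 and 0.98 ± 0.255 TPM for LAMA1. There the ranges of LAMB3, LAMC1, LAMB2 and LAMA5 overlapped from each to the next. The order depended on the scale, and how lengths entered the deposited TPM is unknown here. With counts divided by the deposited gene length, LAMB1 was above LAMA5 with miR-146a-5p, at 33.6 against 25.9 CPM per kilobase on average. On that scale LAMB2 was below LAMB1 and LAMA5 by mean in both groups, at 22.8 and 22.7 CPM per kilobase with miR-146a-5p and 19.6 and 26.9 CPM per kilobase in scramble cells, where its range overlapped those of LAMB1 and LAMA5.

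Summed over their members, the beta chains were the most abundant class in every library. They summed to 278 and 279.9 TPM in the miR-146a-5p libraries, against 221 and 247 TPM in the scramble libraries. The single gamma chain LAMC1 stood at 113 and 122 TPM, against 95.4 and 102 TPM, and the alpha chains summed to 81.2 and 91.7 TPM with miR-146a-5p, against 85.4 and 105 TPM in scramble cells. The beta and gamma values did not overlap between groups, and the alpha sums did. All 8 genes together summed to 473 and 494 TPM with miR-146a-5p and to 402 and 454 TPM in scramble cells, a ratio of means of 1.13, while in CPM the groups overlapped (ratio of means 1.08). With 2 libraries a side, an exact two-sided permutation test cannot give a p below 0.333, so these sums were not tested.

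Within the alpha chains LAMA5 made up 82.6% and 82.96% of the TPM in the miR-146a-5p libraries, against 83.2% and 88.9% in the scramble libraries. LAMA4 made up 11.6% and 10.9%, against 8.33% and 6.51%. Among the beta chains, LAMB3 made up 43.8% and 46.1% of the TPM with miR-146a-5p, against 40.9% and 44.5% in scramble cells, with overlapping groups. One ratio within libraries, picked after its values were seen, was close in both scramble libraries: LAMB3 over LAMB2, in counts per kilobase, was 3.31 and 3.28 with miR-146a-5p, against 2.50 and 2.58 in scramble cells. In TPM the same ratio was 1.26 and 1.43, against 1.28 and 1.12, with overlapping groups.

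**Figure D4:**
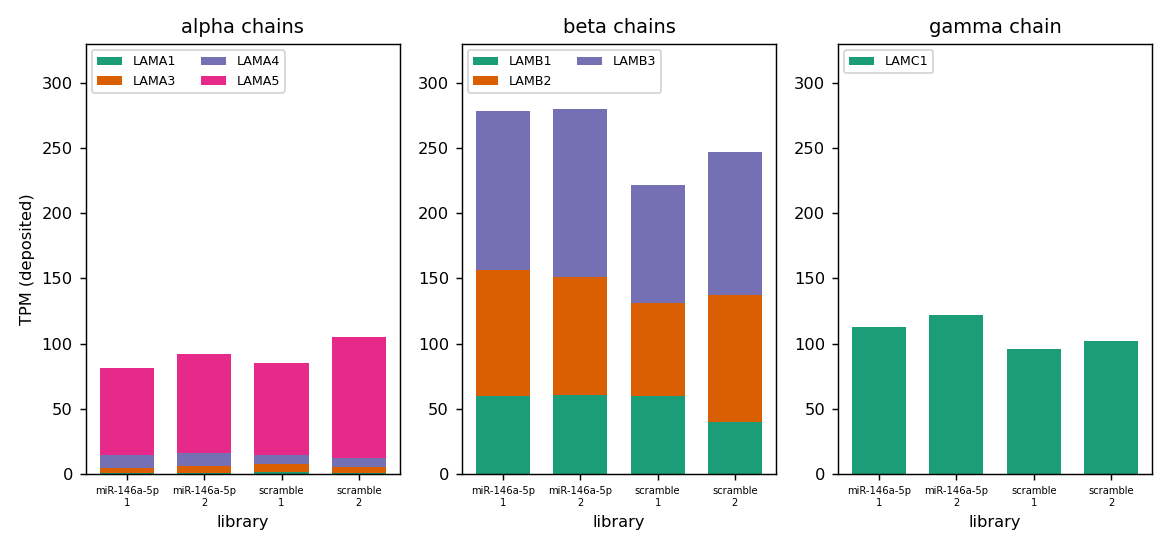
Deposited TPM (y, from 0) of the laminin chain genes stacked by class in each library (x), with alpha, beta and gamma chains in separate panels and miR-146a-5p libraries to the left of scramble libraries. The beta chains sum to 278 and 279.9 TPM with miR-146a-5p against 221 and 247 TPM in scramble cells, and LAMA5 fills most of each alpha bar.

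LAMA2, LAMB4 and LAMC3, which encode laminin chains outside the 8, were low. LAMA2 had 1.59 and 0.637 CPM in the miR-146a-5p libraries, against 1.39 and 1.10 CPM in the scramble libraries, and the groups overlapped. LAMB4 and LAMC3 each had 1 count in 1 library and 0 in the others. The authors' deposited table lists none of the 8 genes as significant.

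Related genes were read from lists of basement membrane partners, laminin receptors with their anchors, and enzymes that process laminin or build the sugar by which dystroglycan binds it. Of 19 basement membrane genes 15 were tested, of 15 receptors 15, and of 14 enzymes 12, and both edgeR and DESeq2 called 0 in each list. At an unadjusted p under 0.05, edgeR had 3 basement membrane genes, 2 receptors and 0 enzymes, beside 549 of all 14810 tested genes. For the basement membrane list the median log2 fold change was -0.02, with 6 tested genes above both scramble libraries and 4 below. For the receptors it was 0.21, with 5 above and 1 below, and for the enzymes 0.09, with 3 above and 0 below. The shares over all tested genes were 18% above and 17.9% below.

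The basement membrane genes with the smallest p were COL7A1, the collagen of anchoring fibrils, HSPG2, the proteoglycan perlecan, and PXDN, a peroxidase that links collagen IV. COL7A1 had 174 and 179 CPM in the miR-146a-5p libraries, against 75.9 and 100.1 CPM in the scramble libraries, with a log2 fold change of 1.00 ± 0.22 (SE, DESeq2 adjusted p = 0.455). HSPG2 had 11.97 and 9.80 CPM, against 17.4 and 23.7 CPM in scramble cells, a log2 fold change of -0.92 ± 0.27. PXDN had 7.20 and 5.73 CPM with miR-146a-5p, against 1.83 and 3.56 CPM in scramble cells, a log2 fold change of 1.26 ± 0.42. In all 3 the groups did not overlap, and none was called by either tool.

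Among the receptors, the smallest p belonged to the syndecans SDC4 and SDC2, cell surface proteoglycans, and to BCAM, a receptor for the LAMA5 chain. SDC4 had 507 and 483 CPM in the miR-146a-5p libraries, against 222 and 291 CPM in the scramble libraries, a log2 fold change of 0.95 ± 0.20 (SE, DESeq2 adjusted p = 0.599). SDC2 had 6.12 and 5.34 CPM, against 3.22 and 2.90 CPM in scramble cells, and BCAM had 19.3 and 19.0 CPM with miR-146a-5p, against 21.9 and 33.1 CPM. In all 3 the groups did not overlap, with SDC4 and SDC2 above and BCAM below both scramble libraries, and none was called. Among the enzymes, PLAT, a plasminogen activator, had 131 and 119 CPM, against 75.3 and 97.6 CPM in scramble cells. PLAU, the other plasminogen activator, had 205 and 193 CPM with miR-146a-5p, against 138 and 191 CPM in scramble cells. Both lay above both scramble libraries, and neither was called.

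**Figure D5:**
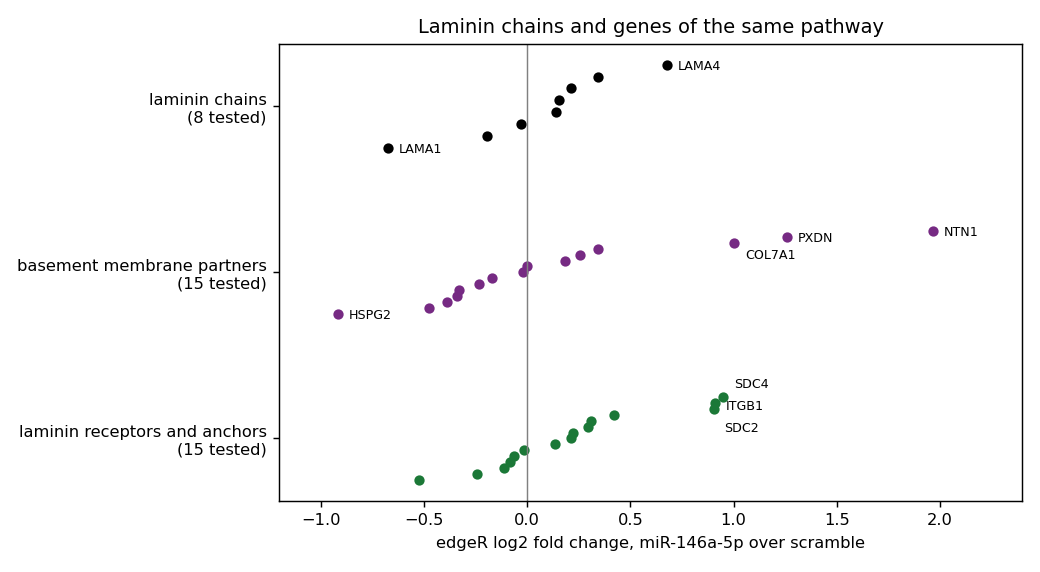
EdgeR log2 fold change of miR-146a-5p over scramble (x) of each tested gene, with 1 row (y) each for the 8 laminin chains, the basement membrane partners and the receptors with their anchors, and names for genes beyond 0.6 in either direction. The 8 laminin chains lie between -0.67 and 0.68. To their right lie COL7A1 (1.00), PXDN (1.26) and NTN1 (1.97, at most 1.08 CPM in any library) of the basement membrane partners. SDC4 (0.95), ITGB1 (0.91) and SDC2 (0.90) of the receptors also lie to their right, and HSPG2 lies to their left at -0.92.

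For the 2 chains with the highest mean TPM, the genes with the most similar pattern were found by the Euclidean distance of log2 CPM, centred over the 4 libraries, among 9410 tested genes with a mean of at least 10 CPM. The closest to LAMB3 were BAHCC1 (distance 0.0208), IRF2BPL (0.0237) and SLC2A1 (0.0396), and SLC2A1 had 248 and 244 CPM in the miR-146a-5p libraries, against 165 and 234 CPM in the scramble libraries. The closest to LAMC1 were PI4KAP1 (0.0096), SETDB1 (0.0178) and TTC1 (0.0248), of which PI4KAP1 is a pseudogene whose reads may be split with its parent gene. The other laminin chains in this set were farther away. LAMC1 was the nearest of them to LAMB3, at a distance of 0.293 and in place 516, and LAMB2 was the nearest to LAMC1, at 0.246 and in place 1688. With 4 libraries these distances describe the pattern in them and carry no test.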

How the data were processed

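RNA of 4 T24 libraries was read from 1 deposited table. Its estimated counts, TPM, fold changes as a ratio, log2 fold changes and p-values were made by the authors. Per the submitters' processing notes, HTSeq 0.6.1, HISAT2 2.0.1, cutadapt 1.9.1, DESeq2 and the hg19 build were used, with no role or order stated. The annotation release, the strand setting and the tool behind fractional counts (34.3% of values in genes detected in all libraries) are not given in the sources used here, so genes sharing reads carry added uncertainty.

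Groups came from the labels. Estimated counts were rounded, and genes were kept by filterByExpr (minimum count 10, minimum total 15), leaving 14810 genes. Differences were tested two-sided by quasi-likelihood in edgeR 4.0.16 under R 4.3.3, on TMM-scaled counts and with no term besides group. P-values were adjusted by Benjamini-Hochberg, with a threshold of 0.05. The standard errors were derived from the F statistic. The library totals of 20290055 to 22774090 counts give the depth. DESeq2 1.42.0, limma 3.58.1 (voom), other scalings, no filter, the replicate number as a block, GC content and length offsets (smooth trends fitted with mgcv 1.9.3) and leaving out each library were alternatives. The fits were tested on simulated data. Log2 CPM used a prior count of 2. GC content and 3′ UTRs came from the longest protein-coding transcript in GENCODE release 29 (GRCh38), and coordinates are 1-based from that build, since hg19 was not used here. The members and lists were chosen with earlier results of these data known. Related genes were named where a list member passed edgeR, else DESeq2, else for the 3 smallest edgeR p, apart from items that are not reported here.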

Additional observations from a re-analysis of the deposited data

How the results depend on the processing

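With 4 libraries edgeR called 0 of all tested genes, with 549 at an unadjusted p under 0.05. DESeq2 called 52 and, with a replicate block, 10, while edgeR with a replicate block called 5. Leaving out 1 library moved the edgeR count to between 8 and 8421. The DESeq2 count moved to 2 without either miR-146a-5p library, 5349 and 1107 without scramble replicate 1 or 2. The correlation of the deviations of same-numbered libraries was -0.146, and no label ties a replicate number to a culture or day. With crossed numbers as a block edgeR called 0 genes and DESeq2 10. No block with all 4 libraries called any of the 8 laminin chains. Leaving out 1 library moved the number of chains called, 0 in the main test, to between 0 and 5 by edgeR, and by DESeq2 to 3 (scramble replicate 1 left out) and 2 (scramble replicate 2 left out). The median log2 fold change of the 8 was 0.22 with GC and length offsets, 0.22 with a replicate block with GC and length offsets, between 0.0838 and 0.17 with 1 library left out of edgeR, and 0.0763 by DESeq2 without scramble replicate 1. LAMA5 turned positive with GC and length offsets (0.0312), with those and a replicate block (0.0341) and without scramble replicate 2 (0.10 by edgeR, 0.0892 by DESeq2), against -0.43 by edgeR without scramble replicate 1. LAMB2 turned positive in the same fits (0.21, 0.21, 0.23 and 0.22), against -0.24 by edgeR without scramble replicate 1. The GC values given above are a description, and the cause of these changes of sign was not tested. The other 6 chains kept their direction in every alternative. The ratio of summed TPM was between 1.06 and 1.20 with 1 library left out. Counting 8-mer sites only, 0 of the 8 held a match. LAMA1 had the fewest counts of the 8, 38 to 78 per library.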

Other observations

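LAMA2, a laminin chain of muscle that is not among the 8, had deposited TPM out of step with its counts. Its TPM was 1.12 and 1.77 in the miR-146a-5p libraries and 25.6 and 0.18 in the scramble libraries, while its estimated counts were 34 and 12.6 with miR-146a-5p and 30.9 and 25 in scramble cells.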
